A study of Mus musculus with 21 samples.

Results

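A set of 9 genes of DNA methylation and Polycomb repression were followed through mouse epidermal keratinocytes: Dnmt1, Dnmt3a, Dnmt3b, Uhrf1, Tet2, Tet3, Ezh1, Ezh2 and Jarid2. They were taken by symbol from the 3 gene tables of the series, which share 43776 symbols, and each of the 9 had 1 locus in every table. The 21 libraries of polyA RNA fell into 7 groups of 3. One table set 3 populations against each other, with columns named HFSC, CD34a6 and bulk. Its 9 libraries came from wild type epidermis, and the labels name them as FACS-purified hair follicle stem cells (HFSCs), cultured HFSCs and total epidermal cells. The titles of the cultured ones read 3C-HFSCs, 3C being the name of the culture described below. Whether the freshly sorted or the cultured cells are in the column HFSC, and which are in CD34a6, cannot be read from the labels, so the column names are kept. HFSC against CD34a6 thus sets sorted and cultured cells against each other, in an order the labels do not give. The column name HFSC is not taken to mark the sorted cells. All 8 bulge markers, given below, were lower in that column than in CD34a6. Bulk was read as total epidermal cells. The other 2 tables held only 3C cultures, in which total epidermal cells are grown for 10 to 14 days. One compared their CD34+ and CD34neg fractions, both sorted for alpha-6 integrin. The column that table names 3C_HFSC was taken as the CD34+ fraction, from the labels' description of the comparison. The libraries titled 3C-HFSCs above bear nearly the same name. The other compared cultures kept for 48 h with dorsomorphin, an inhibitor of BMP type I receptors and of AMPK, or with cyclopamine, an inhibitor of Smoothened in the Hedgehog pathway, and no untreated culture is in that table. Genotype, age and strain are not given for the libraries of these 2 tables. The 3 libraries of a group may be from 1 or several animals or cultures, since the labels leave this out.

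DNA methylation at CpG sites is set down by the de novo methyltransferases Dnmt3a and Dnmt3b and copied after each round of replication by Dnmt1, which Uhrf1 brings to the half-methylated daughter strands. Tet2 and Tet3 oxidise methylcytosine, a step towards its removal. Ezh1 and Ezh2 are alternative catalytic subunits of Polycomb repressive complex PRC2, which methylates lysine 27 of histone H3, and Jarid2 is an accessory subunit that helps to bring the complex to its targets. In skin, Polycomb proteins and DNA methylation are known for holding epidermal progenitors in an undifferentiated, dividing state, and Uhrf1, Dnmt1 and Ezh2 are commonly more abundant in dividing cells.

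The 9 loci are given on the mouse build GRCm38. Dnmt1 is at chr9:20907206-20959888 on the minus strand, Dnmt3a at chr12:3806007-3914443 and Dnmt3b at chr2:153648690-153687730 on the plus strand, and Uhrf1 at chr17:56303321-56323486 on the plus strand. Tet2 is at chr3:133463679-133585053, Tet3 at chr6:83362373-83459084, Ezh1 at chr11:101191115-101226463 and Ezh2 at chr6:47530274-47595341, all on the minus strand, and Jarid2 at chr13:44729474-44921643 on the plus strand. These are the loci as deposited, and some are wider than the gene. The Tet2 locus takes in the opposite-strand gene Gm42567, and Tet2 itself is annotated only to 133545139. The Dnmt3b locus begins with the opposite-strand gene Dnmt3bos, and Dnmt3b itself is annotated from 153649450. Dnmt3a, Dnmt3b, Tet2, Tet3, Ezh2 and Jarid2 overlap annotated genes on the opposite strand, and the labels name a directional library kit but not the strand setting of the counting. Gm42567, opposite Tet2, and Gm44282, opposite Ezh2, had no value of their own, so the overlap at Tet2 could not be checked. Where such genes had values of their own, they were low. The highest was 2.23 FPKM for Gm26625, within Ezh2, in the CD34+ fraction, against 56.8 FPKM for Ezh2.

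The starts of these genes are shown because Dnmt1, Uhrf1 and Ezh2 carry letters of an E2F element, the kind of sequence read by the transcription factors of S phase. The search covered TTTCCCGC, TTTCGCGC, TTTGCCGC and TTTGGCGC on both strands of RefSeq windows of 250 bases before to 50 after each start (GRCm38.p6). All 9 genes had a window, 15 in all. A match was found in 3 windows of 3 genes, against 2.26% of the 32851 windows of the genome. Below, each window runs 5′ to 3′ from 250 bases before to 30 after the start, with the E2F letters in capitals. Ezh1, the paralog of Ezh2, and Dnmt3b had no E2F match in their windows and are shown for contrast. The letters TTTGAA and CCAAT were searched as well, and were in 17.9% and 37.4% of all windows. Of the printed windows only that of Dnmt3b held TTTGAA, 128 bases before its start. CCAAT was in the printed windows of Dnmt1, Uhrf1 and Ezh2 and not in those of Ezh1 and Dnmt3b.
Dnmt1: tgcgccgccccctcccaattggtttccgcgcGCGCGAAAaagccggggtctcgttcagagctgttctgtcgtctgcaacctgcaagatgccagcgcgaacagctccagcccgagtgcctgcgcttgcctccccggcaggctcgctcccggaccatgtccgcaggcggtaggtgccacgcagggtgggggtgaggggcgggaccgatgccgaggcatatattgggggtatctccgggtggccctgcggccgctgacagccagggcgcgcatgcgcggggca
Uhrf1: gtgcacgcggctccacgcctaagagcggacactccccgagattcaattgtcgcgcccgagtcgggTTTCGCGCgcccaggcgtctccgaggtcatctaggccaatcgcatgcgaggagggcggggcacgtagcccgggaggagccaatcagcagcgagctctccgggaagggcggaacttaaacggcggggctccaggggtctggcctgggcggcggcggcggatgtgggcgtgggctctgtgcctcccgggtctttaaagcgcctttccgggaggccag
Ezh2: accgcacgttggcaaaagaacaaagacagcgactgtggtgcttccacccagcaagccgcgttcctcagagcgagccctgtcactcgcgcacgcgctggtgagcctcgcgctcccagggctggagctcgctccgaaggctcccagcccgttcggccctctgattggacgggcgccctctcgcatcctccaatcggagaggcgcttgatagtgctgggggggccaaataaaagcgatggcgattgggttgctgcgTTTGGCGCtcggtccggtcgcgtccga
Ezh1: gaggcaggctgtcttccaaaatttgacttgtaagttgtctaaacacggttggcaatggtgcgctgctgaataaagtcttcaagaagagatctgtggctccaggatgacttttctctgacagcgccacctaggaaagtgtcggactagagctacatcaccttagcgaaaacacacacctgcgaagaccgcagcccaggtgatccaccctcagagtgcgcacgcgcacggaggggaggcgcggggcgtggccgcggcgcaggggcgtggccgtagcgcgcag
Dnmt3b: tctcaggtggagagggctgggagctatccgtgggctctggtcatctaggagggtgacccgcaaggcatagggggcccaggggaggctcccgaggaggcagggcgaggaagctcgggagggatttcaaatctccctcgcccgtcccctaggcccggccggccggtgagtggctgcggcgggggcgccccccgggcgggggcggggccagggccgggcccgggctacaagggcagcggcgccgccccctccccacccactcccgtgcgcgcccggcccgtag
The Dnmt1 window is chr9:20952594-20952873 on the minus strand and belongs to the furthest downstream of 3 annotated starts. The window of the furthest upstream start, at 20959888, had no E2F match. In the printed window the capitals begin 219 bases before the start and read TTTCGCGC on the other strand. A second match, TTTGGCGC, lies past the printed stretch, from base 34 after the start. The Uhrf1 window is chr17:56304063-56304342 on the plus strand and is the second of 2 starts, with TTTCGCGC from 185 bases before it. In Ezh2, chr6:47595001-47595280 on the minus strand, TTTGGCGC lies just after the start, from base 4. The Ezh1 window is chr11:101226434-101226713 on the minus strand and the Dnmt3b window chr2:153649199-153649478 on the plus strand. The 3 windows with an E2F match had a GC content of 69.7% in Dnmt1, 68.3% in Uhrf1 and 64.3% in Ezh2, against a median of 52.7% over all windows. Ezh1 had 59.3% and Dnmt3b 76.0%. Their ratio of observed to expected CpG was 0.91 in Dnmt1, 0.96 in Uhrf1 and 1.00 in Ezh2, against a median of 0.38 over all windows. Ezh1 had 0.88 and Dnmt3b 0.69. The E2F letters hold CpG, and the share of 2.26% is over all windows, not over windows of like CpG content. A match of letters is a description of the sequence and shows no binding.

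Levels are in FPKM, fragments scaled to transcript length and to the mapped fragments of the library, which allows genes of different length to be compared. The tables hold 1 pooled value per population, so no value has an SD. A call, higher or lower, means that the adjusted p (q) in the authors' deposited table was under 0.05. Levels are compared within a table only. Dnmt3b was the lowest of the 9 genes in all 7 populations. Uhrf1 was the highest in HFSC and CD34a6, Dnmt1 in bulk, Ezh2 in both 3C fractions and Jarid2 in both inhibitor cultures. The plot of levels by population gives all 63 values.

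**Figure D1:**
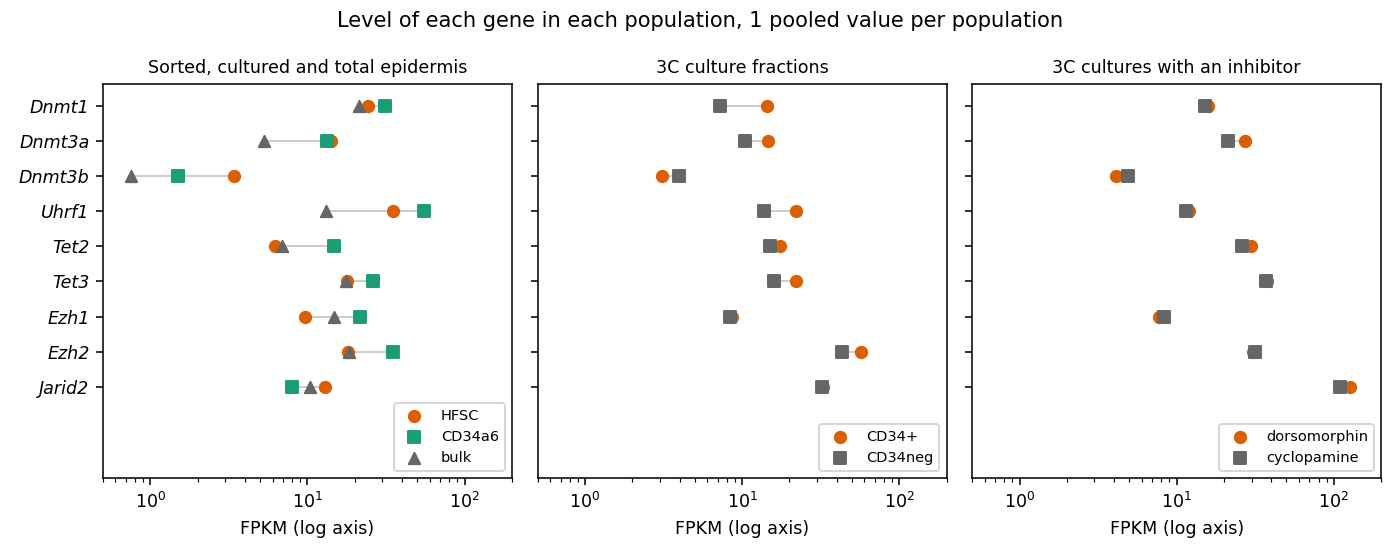
FPKM on a log axis for each of the 9 genes (rows) in each population (symbols), with 1 panel per table and 1 pooled value per symbol, so no error bars. Uhrf1, Dnmt3a and Dnmt3b lie well above bulk in the HFSC and CD34a6 columns, Dnmt1 is separated in the 3C fractions, and the 2 inhibitor symbols lie close together in every row.

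HFSC set against CD34a6 gave the most differences. Dnmt3b and Jarid2 were higher in HFSC, and 6 genes were lower: Dnmt1, Uhrf1, Tet2, Tet3, Ezh1 and Ezh2. Dnmt3a was the one not called. These 8 calls among 9 genes stand against 54.2% of all 13962 loci tested in the authors' deposited table, 25.2% being higher and 29.0% lower. The median log2 ratio of the 9 was -0.56, against -0.09 over all loci tested.

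The de novo enzymes differed from each other in this comparison. Dnmt3b had 3.39 FPKM in HFSC and 1.5 FPKM in CD34a6, a log2 ratio of 1.18 with q = 0.000212 in the authors' deposited table. Dnmt3a had 14.2 FPKM in HFSC and 13.3 FPKM in CD34a6, with q = 0.636. The maintenance pair was lower by smaller amounts. Uhrf1 had 34.9 FPKM in HFSC and 55.4 FPKM in CD34a6 (log2 ratio -0.66, q = 0.0410 in the authors' deposited table). Dnmt1 had 24.2 FPKM in HFSC and 31.2 FPKM in CD34a6 (log2 ratio -0.37, q = 0.0417 in the authors' deposited table). Both lay just inside the threshold.

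Of the demethylation enzymes, Tet2 had 6.18 FPKM in HFSC and 14.7 FPKM in CD34a6 (log2 ratio -1.25, q = 0.000212 in the authors' deposited table). Tet3 had 17.8 FPKM in HFSC and 26.1 FPKM in CD34a6 (log2 ratio -0.56, q = 0.00126 in the authors' deposited table). Of the list of 7 demethylation genes, 5 were lower and 1 higher in HFSC. Tet1, the third member of the family, was at 0.166 FPKM in HFSC and 1.98 FPKM in CD34a6. Idh1 and Idh2, which make the cosubstrate of the Tet enzymes, had 33.1 and 24.4 FPKM in HFSC, against 78.0 and 55.4 FPKM in CD34a6.

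Both catalytic subunits of PRC2 were lower in HFSC. Ezh1 had 9.63 FPKM in HFSC and 21.5 FPKM in CD34a6 (log2 ratio -1.16), and Ezh2 had 18.1 FPKM in HFSC and 35.0 FPKM in CD34a6 (log2 ratio -0.95), each with q = 0.000212 in the authors' deposited table. None of the other core subunits was lower. Eed was higher in HFSC, with 25.1 FPKM against 17.2 FPKM in CD34a6, and Suz12 had 25.5 FPKM in HFSC and 25.4 FPKM in CD34a6 (q = 0.982 in the authors' deposited table). Among accessory subunits Jarid2 had 12.9 FPKM in HFSC and 7.94 FPKM in CD34a6 (log2 ratio 0.70, q = 0.0126 in the authors' deposited table). Aebp2, another accessory subunit, was also higher in HFSC, with 68.3 FPKM against 32.0 FPKM in CD34a6. The accessory subunits Phf1 and Phf19 were lower in HFSC, at 2.41 and 0.456 FPKM, against 16.4 and 2.99 FPKM in CD34a6. Mtf2 was not called, with 14.4 FPKM in HFSC and 15.7 FPKM in CD34a6 (q = 0.745 in the authors' deposited table). Of the 5 accessory genes tested, 2 were therefore higher and 2 lower.

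Of 20 genes of PRC1, the partner complex that ubiquitinates histone H2A, 10 were lower and 5 higher in HFSC than in CD34a6. Those with the largest log2 ratios were Cbx7 (-1.66), Pcgf2 (-1.26), Phc3 (-1.24) and Cbx2 (-1.17), all lower in HFSC. Of 7 readers of methylated CpG, 2 were higher (Mbd2 and Zbtb33) and 2 lower (Mbd4 and Zbtb38). Cdkn2b, a cell cycle inhibitor gene and a known Polycomb target, was at 11.1 FPKM in HFSC and 1.07 FPKM in CD34a6 (log2 ratio 3.37, q = 0.000212 in the authors' deposited table). Its neighbour Cdkn2a was at 22.4 FPKM in HFSC and 0.0381 FPKM in CD34a6 and was not called (q = 0.330 in the authors' deposited table).

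**Figure D2:**
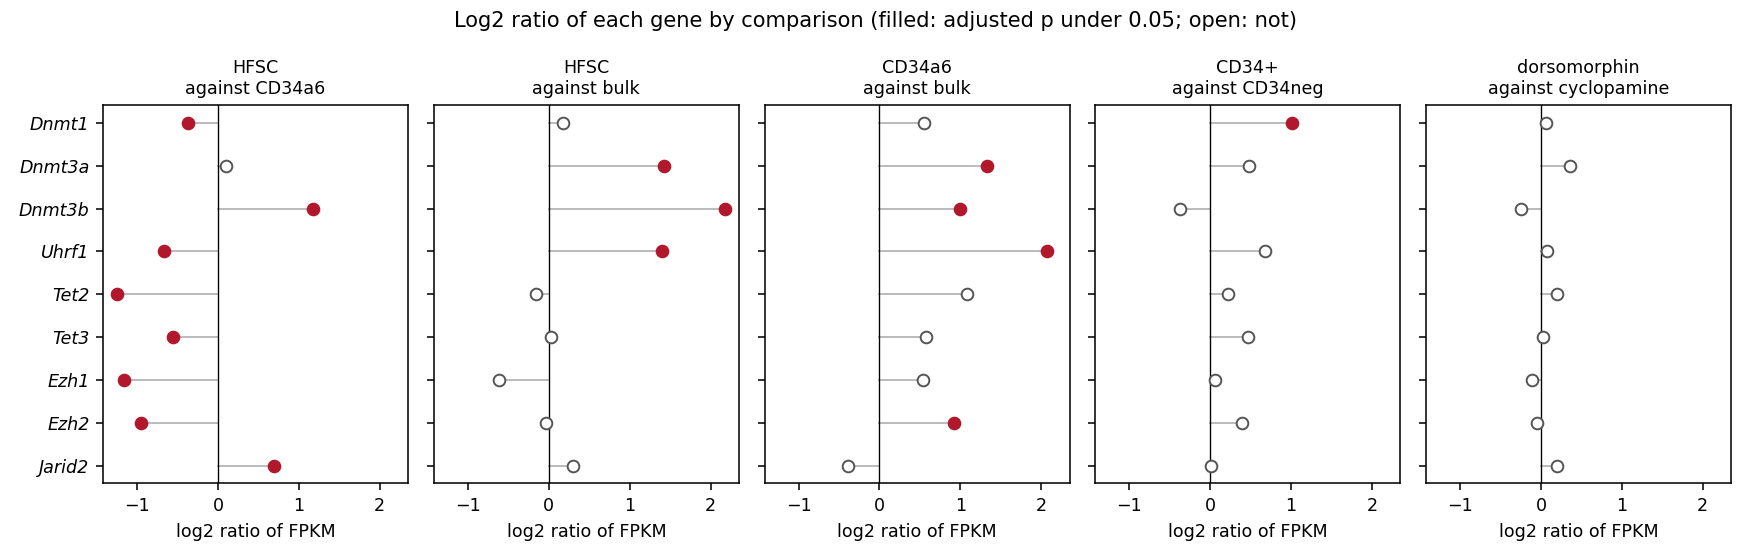
Log2 ratio of FPKM for each gene (rows) in each of the 5 comparisons (panels), with positive values where the population named first is higher. Filled points have an adjusted p under 0.05 in the authors' deposited table: 8 for HFSC against CD34a6, 3 for HFSC against bulk, 4 for CD34a6 against bulk, 1 for CD34+ against CD34neg and 0 for dorsomorphin against cyclopamine.

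Against bulk, Dnmt3a, Dnmt3b and Uhrf1 were higher in HFSC and none of the 9 was lower. Dnmt1, Tet2, Tet3, Ezh1, Ezh2 and Jarid2 were not called. In all, 43.7% of 14035 loci were called in this comparison in the authors' deposited table, 19.0% higher and 24.7% lower. The 3 of 9 called is thus no larger a share than that of all loci. The comparisons of HFSC and of CD34a6 with bulk share the bulk libraries, so their values are set side by side below and not correlated.

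Dnmt3b had 3.39 FPKM in HFSC and 1.5 FPKM in CD34a6, against 0.748 FPKM in bulk. Its ratio to bulk was 4.53 in HFSC (q = 0.000212) and 2.00 in CD34a6 (q = 0.0453) in the authors' deposited table. All 3 pairs of populations were called for this gene, so the order HFSC, CD34a6, bulk has no tied neighbours, although the bulk value is under 1 FPKM. With 1 FPKM added to both, the log2 ratio of HFSC to bulk was 1.33, against 2.18 as deposited. Dnmt3a had 14.2 FPKM in HFSC and 13.3 FPKM in CD34a6, against 5.31 FPKM in bulk. Its ratio to bulk was 2.68 in HFSC (q = 0.00391) and 2.51 in CD34a6 (q = 0.00696) in the authors' deposited table. Across 12081 loci the log2 ratio of CD34a6 to bulk ran with exonic length (Spearman rho 0.32, over genes, which are not replicates), and with that trend subtracted the log2 ratio of Dnmt3a in CD34a6 to bulk was 0.64, against 1.33 as deposited. Uhrf1 was the other gene called in all 3 pairs, in the order CD34a6, HFSC, bulk. It had 34.9 FPKM in HFSC and 55.4 FPKM in CD34a6, against 13.2 FPKM in bulk, and its ratio to bulk was 2.65 in HFSC and 4.20 in CD34a6, both with q = 0.000212 in the authors' deposited table.

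Dnmt1, the enzyme that works with Uhrf1, had 24.2 FPKM in HFSC and 31.2 FPKM in CD34a6, against 21.4 FPKM in bulk. Neither ratio to bulk was called, with q = 0.417 for HFSC and 0.103 for CD34a6 in the authors' deposited table. The ratio of Uhrf1 to Dnmt1 was accordingly 1.44 in HFSC and 1.77 in CD34a6, against 0.617 in bulk. No test of such ratios between genes is possible with 1 pooled value per population. Of the 6 tested genes of the DNA methyltransferase list, 5 were higher in HFSC than in bulk, and the same count was higher in CD34a6. Beside the members these included Hells, a chromatin remodeller needed for DNA methylation, at 21.8 FPKM in HFSC and 14.9 FPKM in CD34a6, against 4.43 FPKM in bulk. Uhrf2, the paralog of Uhrf1, had 29.1 FPKM in HFSC and 33.8 FPKM in CD34a6, against 13.7 FPKM in bulk.

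CD34a6 against bulk gave 4 calls, all higher: Dnmt3a, Dnmt3b, Uhrf1 and Ezh2. Here 46.3% of 14441 loci were called in the authors' deposited table, 22.0% higher and 24.3% lower. The 4 of 9 called (44.4%) is thus no larger a share than that of all loci called in either direction. Ezh2 had 35.0 FPKM in CD34a6 and 18.4 FPKM in bulk, a ratio of 1.90 with q = 0.0185 in the authors' deposited table. In HFSC it was at 18.1 FPKM, which was not called against bulk (q = 0.903 in the authors' deposited table). Ezh1 had 9.63 FPKM in HFSC and 21.5 FPKM in CD34a6, against 14.7 FPKM in bulk. Bulk lay between the other populations, and only the HFSC to CD34a6 pair of Ezh1 was called (q = 0.0663 for HFSC and 0.111 for CD34a6 against bulk in the authors' deposited table).

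Tet2 was at 6.18 FPKM in HFSC and 14.7 FPKM in CD34a6, against 6.92 FPKM in bulk. The CD34a6 to bulk ratio of 2.12 fell just outside the threshold (q = 0.0510 in the authors' deposited table). Tet3 was at 17.8 FPKM in HFSC and 26.1 FPKM in CD34a6, against 17.5 FPKM in bulk, with q = 0.913 for HFSC and 0.142 for CD34a6 in the authors' deposited table. Jarid2 ran the other way, with 12.9 FPKM in HFSC and 7.94 FPKM in CD34a6, against 10.4 FPKM in bulk, and neither ratio to bulk was called (q = 0.320 for HFSC and 0.302 for CD34a6 in the authors' deposited table).

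Other PRC2 subunits were called against bulk as well, in HFSC, where no PRC2 member was, and in CD34a6, where Ezh2 was. Suz12, which holds the complex together, had 25.5 FPKM in HFSC and 25.4 FPKM in CD34a6, against 9.76 FPKM in bulk, with q = 0.000212 for both in the authors' deposited table. Eed was higher than bulk in HFSC (25.1 FPKM against 12.97 FPKM), and Aebp2 in both, with 68.3 FPKM in HFSC and 32.0 FPKM in CD34a6, against 17.8 FPKM in bulk. Phf1 and Phf19 were higher than bulk in CD34a6, at 16.4 and 2.99 FPKM, against 2.33 and 0.720 FPKM in bulk. In PRC1, HFSC had 6 genes of 20 higher than bulk and 3 lower, and CD34a6 had 6 higher and 0 lower. Phc1 and Scmh1 led the higher ones in both, with log2 ratios to bulk of 2.70 and 1.95 in HFSC and 2.89 and 2.61 in CD34a6. Cbx7 (log2 ratio -2.40) and Cbx2 (-1.41) were lower in HFSC. Among the demethylation genes Idh2 was lower in HFSC (log2 ratio -1.07), and Idh1 was higher in CD34a6 (1.19). Cdkn2b was lower than bulk in both, at 11.1 FPKM in HFSC and 1.07 FPKM in CD34a6, against 25.5 FPKM in bulk. Cdkn2a was at 22.4 FPKM in HFSC, against 0.11 FPKM in bulk (q = 0.00174 in the authors' deposited table). Of the 8 germline genes that DNA methylation and Polycomb are known to silence (Dazl, Ddx4, Mael and the like), all were under 1 FPKM in all 7 populations.

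**Figure D3:**
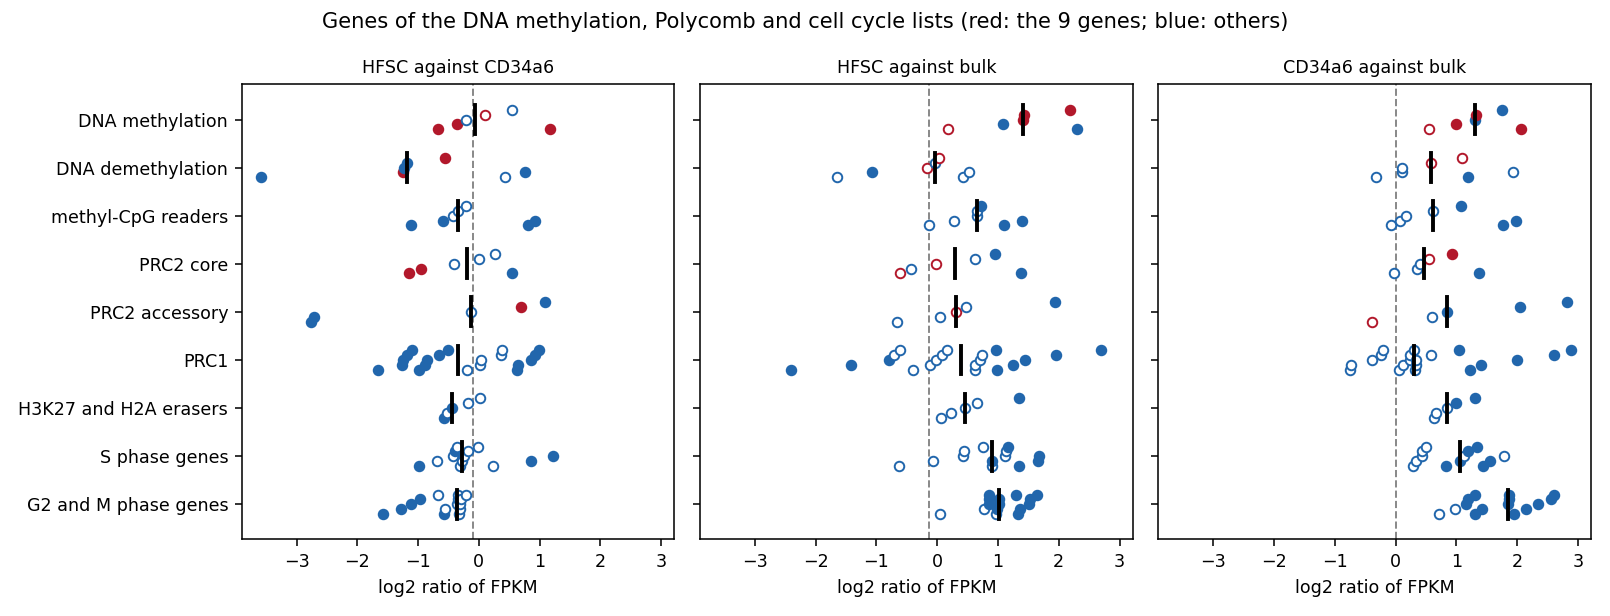
Log2 ratio of FPKM for every tested gene of the DNA methylation, Polycomb and cell cycle lists (rows) in the comparisons of HFSC with CD34a6, HFSC with bulk and CD34a6 with bulk (panels). Red points are the 9 genes and blue points the others, filled points have an adjusted p under 0.05, black ticks are list medians and the dashed line is the median of all loci tested. In the panels against bulk the DNA methylation list has medians of 1.41 for HFSC and 1.32 for CD34a6, and the G2 and M phase list 1.01 for HFSC and 1.86 for CD34a6.

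Levels of cell cycle genes are given beside these differences. Mki67, a marker of dividing cells, was at 19.3 FPKM in HFSC and 37.8 FPKM in CD34a6, against 7.48 FPKM in bulk, and all 3 pairs were called. That is the order of Uhrf1. Dnmt1 had the same order of levels, but neither of its ratios to bulk was called. Ezh2 had 18.1 FPKM in HFSC and 18.4 FPKM in bulk, which was not called. Of 15 genes of G2 and M phase, 5 were lower and 0 higher in HFSC than in CD34a6, 12 were higher in HFSC than in bulk, and 13 were higher in CD34a6 than in bulk. Of 13 tested S phase genes, 2 were lower and 2 higher in HFSC than in CD34a6, 5 were higher in HFSC than in bulk and 6 in CD34a6 than in bulk. These counts stand beside the shares called over all loci, 54.2% for HFSC against CD34a6, 43.7% for HFSC against bulk and 46.3% for CD34a6 against bulk. Mcm5, a helicase subunit, had 22.4 FPKM in HFSC and 29.6 FPKM in CD34a6, against 16.6 FPKM in bulk, and Pcna, the replication clamp, 63.4 FPKM in HFSC and 80.9 FPKM in CD34a6, against 66.3 FPKM in bulk. The part of cell division in the levels of the 9 genes was not tested.

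The populations also held different cells. Immune markers summed to 1.35 FPKM in HFSC, with Lyz2 and Ptprc at 0, and to 5.62 FPKM in CD34a6, against 341 FPKM in bulk. Suprabasal markers of differentiating epidermis summed to 221 FPKM in HFSC and 1648 FPKM in CD34a6, against 49934.5 FPKM in bulk. Of these 6 markers, 4 were lower in HFSC than in CD34a6. The other 2, Flg and Ivl, were higher in HFSC, with log2 ratios of 3.07 and 2.26. The 8 bulge markers, Cd34 and Krt15 among them, summed to 195 FPKM in HFSC and 11575 FPKM in CD34a6, against 4896 FPKM in bulk, of which Krt15 made up 4791 FPKM. All 8 were lower in HFSC than in CD34a6, in spite of the column's name. Against bulk, 4 of them were lower in HFSC (Krt15, Lgr5, Lhx2 and Nfatc1), 2 were higher (Sox9 and Postn), and Cd34 and Tcf3 were not called. Erythroid genes summed to 0.256 FPKM in HFSC and 4.17 FPKM in CD34a6, against 164 FPKM in bulk. Fibroblast markers summed to 0.597 FPKM in HFSC and 33.1 FPKM in CD34a6, against 4.35 FPKM in bulk, with Col3a1 and Lum at 0 in HFSC and CD34a6. The part of this cell mixture in the differences from bulk was not tested, and in such mixed samples fewer cells of a type and less RNA per cell cannot be told apart. The FPKM of all loci summed to 482148 in HFSC and 406712 in CD34a6, against 917071 in bulk, and equal sums would move every log2 ratio to bulk up by 0.93 in HFSC and by 1.17 in CD34a6.

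In 3C cultures the CD34+ fraction, sorted by the surface marker of bulge stem cells, differed from the CD34neg fraction in 1 of the 9 genes. Dnmt1 had 14.5 FPKM in CD34+ cells and 7.20 FPKM in CD34neg cells, a ratio of 2.01 with q = 0.0107 in the authors' deposited table. Here 6.79% of 11370 loci were called in the authors' deposited table, 2.08% higher and 4.71% lower. Uhrf1 had 22.0 FPKM in CD34+ cells and 13.7 FPKM in CD34neg cells, a log2 ratio of 0.68. Its unadjusted p was 0.0371 and its q 0.189 in the authors' deposited table, so this difference was not called.

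The remaining genes lay closer together in the fractions, and none was called. Dnmt3a had 14.5 FPKM in CD34+ cells and 10.4 FPKM in CD34neg cells. Tet3 had 22.1 FPKM in CD34+ cells and 16.0 FPKM in CD34neg cells. Ezh2, the highest of the 9, had 56.8 FPKM in CD34+ cells and 43.4 FPKM in CD34neg cells (q = 0.465 in the authors' deposited table). Tet2 had 17.5 FPKM in CD34+ cells and 15.1 FPKM in CD34neg cells. The fractions were nearly level for Ezh1, with 8.68 FPKM in CD34+ cells and 8.33 FPKM in CD34neg cells, and for Jarid2, with 32.8 FPKM in CD34+ cells and 32.5 FPKM in CD34neg cells. Dnmt3b was the one gene with a lower level in CD34+ cells, 3.07 FPKM against 3.98 FPKM in CD34neg cells (q = 0.639 in the authors' deposited table).

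Of the wider lists, Zbtb38, a reader of methylated CpG, was higher in CD34+ cells (10.96 FPKM against 5.27 FPKM in CD34neg cells), and Pcgf1, a PRC1 subunit, was lower (5.83 FPKM against 12.2 FPKM in CD34neg cells). No gene of the demethylation list, the PRC2 lists or the eraser list was called. Of the G2 and M phase genes 5 of 15 were higher in CD34+ cells, Tpx2, Plk1, Cenpe, Top2a and Mki67, and none of 13 S phase genes was called. Mki67 had 14.4 FPKM in CD34+ cells and 7.76 FPKM in CD34neg cells (q = 0.0364 in the authors' deposited table), while Pcna had 212 FPKM in CD34+ cells and 256 FPKM in CD34neg cells (q = 0.432 in the authors' deposited table). Of the 8 immune markers, 7 were at 0 in both fractions. The bulge markers summed to 404 FPKM in CD34+ cells and 135 FPKM in CD34neg cells.

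The inhibitors gave no call among the 9 genes, where 2.57% of 11505 loci were called in the authors' deposited table, 1.26% higher and 1.31% lower. One of the 9 had an unadjusted p under 0.05. Dnmt3a had 27.1 FPKM with dorsomorphin and 21.2 FPKM with cyclopamine, a log2 ratio of 0.36 with p = 0.0433 and q = 0.373 in the authors' deposited table. Jarid2 was the most abundant of the 9 in both, with 126 FPKM with dorsomorphin and 110 FPKM with cyclopamine (q = 0.839 in the authors' deposited table). It made up 43.4% of their summed FPKM with dorsomorphin and 41.3% with cyclopamine. Ezh2 and Ezh1 were nearly level, Ezh2 with 30.7 FPKM with dorsomorphin and 31.7 FPKM with cyclopamine, and Ezh1 with 7.72 FPKM with dorsomorphin and 8.32 FPKM with cyclopamine. Tet3 had 37.6 FPKM with dorsomorphin and 36.9 FPKM with cyclopamine, and Tet2 29.6 FPKM with dorsomorphin and 25.9 FPKM with cyclopamine. Dnmt1 was at 15.8 FPKM with dorsomorphin and 15.1 FPKM with cyclopamine, and Uhrf1 at 12.0 FPKM with dorsomorphin and 11.4 FPKM with cyclopamine. Dnmt3b had 4.12 FPKM with dorsomorphin and 4.88 FPKM with cyclopamine. None of the methylation and Polycomb genes of the wider lists was called. Ccnb2, a mitotic cyclin gene, was the one cell cycle gene called (log2 ratio 0.60, q = 0.0337 in the authors' deposited table).

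Within a population the balance between related genes varied. The ratio of Ezh2 to Ezh1 was 1.88 in HFSC, 1.63 in CD34a6 and 1.25 in bulk. It was 6.55 in CD34+ and 5.21 in CD34neg cells, and 3.98 with dorsomorphin and 3.81 with cyclopamine. Dnmt3a exceeded Dnmt3b everywhere, by 4.20 times in HFSC, 8.90 times in CD34a6 and 7.10 times in bulk. The same ratio was 4.73 in CD34+ and 2.61 in CD34neg cells, and 6.59 with dorsomorphin and 4.34 with cyclopamine. Tet3 exceeded Tet2 in all 7 populations, by as little as 1.06 times in CD34neg cells and as much as 2.88 times in HFSC. The ratio of Ezh2 to Jarid2 was 1.41 in HFSC, 4.41 in CD34a6 and 1.77 in bulk. It was 1.73 in CD34+ and 1.34 in CD34neg cells, and 0.243 with dorsomorphin and 0.289 with cyclopamine. With no untreated culture beside the inhibitors, an effect of the inhibitors on this ratio was not tested. Ratios from different tables are shown together without a comparison.

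**Figure D4:**
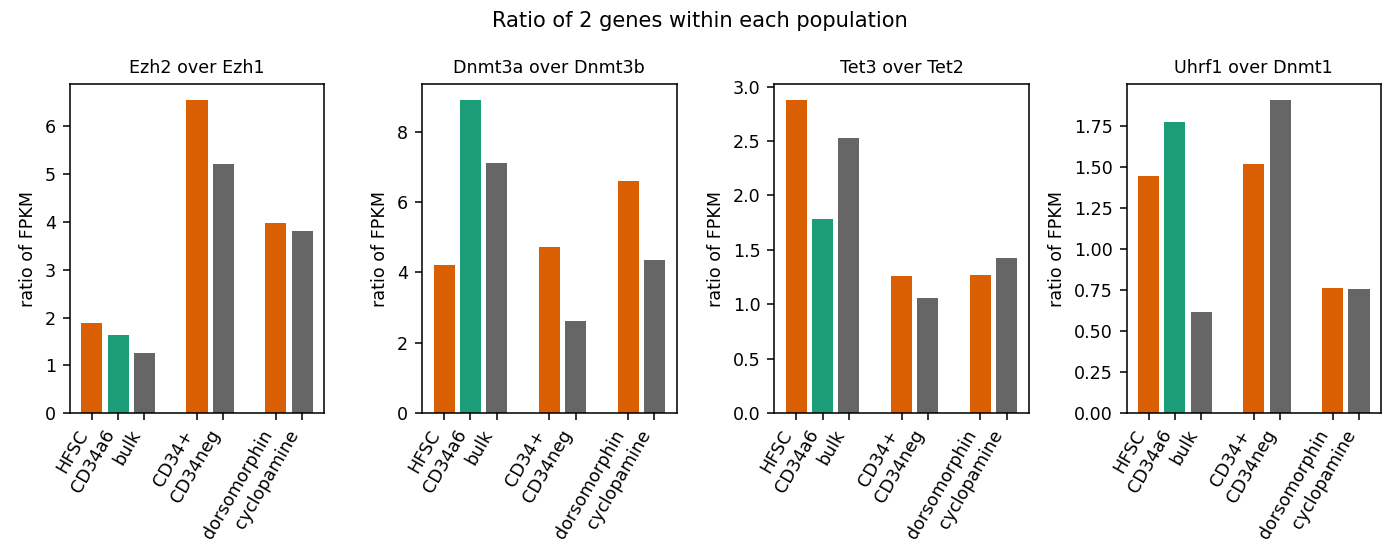
Ratio of FPKM between related genes within each population (bars from 0, 1 pooled value each, no error bars), grouped by table. The ratio of Uhrf1 to Dnmt1 is 1.44 in HFSC and 1.77 in CD34a6 and 0.617 in bulk, and the ratio of Ezh2 to Ezh1 is above 1 in all 7 populations.

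Each gene was also matched with others by pattern, using the log2 ratios of HFSC to bulk, CD34a6 to bulk, CD34+ to CD34neg and dorsomorphin to cyclopamine with 1 FPKM added. Likeness was the root mean square difference over these 4 ratios, of which the first 2 share the bulk libraries, among 7317 genes at 5 FPKM or more in each table. Dnmt3b was under that level. Suz12, another PRC2 subunit, was the nearest to Dnmt3a, with a difference of 0.07, followed by a locus that joins AC146980.1 and Plk4, and by Sox4. Mki67 was the third nearest to Uhrf1, at 0.14, after Tns4 and Bag3. The nearest to Dnmt1 were Actn4, Cdk11b and Polr2a, to Tet2 Cacnb3 and Nfat5, and to Tet3 Efcab14, Ino80d and Gpatch8. For Ezh1 they were Stk38, Srr and Cdip1, for Ezh2 Vangl2, Zscan29 and Pogk, and for Jarid2 Dctn4, Ncbp1 and Gorasp2. Among the 9 genes themselves the closest pairs were Tet2 and Ezh2, at 0.16, and Tet3 and Ezh2, at 0.18. Genes this near are a description of 4 ratios and carry no test.

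Over the 5 comparisons Dnmt3b and Uhrf1 were called 3 times each, Dnmt1, Dnmt3a and Ezh2 2 times, and Tet2, Tet3, Ezh1 and Jarid2 once. Each of the 9 was called at least once, as were 73.3% of the 10071 genes tested in all 5, and 18.8% of those were called at least 3 times.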

How the data were processed

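RNA was measured in 21 libraries. The 3-population table rests on 9 libraries, for which the submitters' processing notes list Cuffdiff and Cufflinks 2.2.1, StringTie 1.1.0, HISAT 0.1.6 and FastQC 0.11.3 (a description label names TopHat2 instead). For the 12 libraries of the fraction and inhibitor tables the authors list DESeq2 1.8.1, Subread 1.4.2 with featureCounts, TopHat2 2.0.13, cutadapt 1.5 and FastQC 0.11.2, per the submitters' processing notes. Those tables nevertheless have the Cuffdiff layout per the file headers, so the tool behind their p-values is not settled. All name GRCm38. The tables deposited by the authors hold 1 FPKM value per population, a log2 ratio, a p-value and a q-value per locus and pair. No value per replicate is used here, depth is not known from the files, and no error could be computed. The 3-population table's other value column holds FPKM of the second population named in each line.

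Exact repeats of lines were dropped. The deposited q-values then matched Benjamini-Hochberg adjustment over tested lines, taking the 3 pairs of the 3-population table together, and the smallest p is 5e-05. Log2 ratios were turned so that the population named first is on top. Genes named are the 9 members, up to 4 called genes a list by size of log2 ratio, Mki67, Pcna and Mcm5, and the 3 nearest patterns of each member, of which 1 is not reported here. Suz12, Cdkn2a and a few others were named after their values were seen. A symbol with several loci was counted at its locus of highest FPKM. The members and lists were chosen with earlier results of these data known. Motif and pattern searches were tested on simulated data or counted over all RefSeq windows. Python 3.11.15, pandas 2.3.3, NumPy 2.4.6 and SciPy 1.17.1 were used.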

Additional observations from a re-analysis of the deposited data

How the results depend on the processing

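With a stricter threshold of q under 0.01, the genes called numbered 5 for HFSC against CD34a6, 2 for CD34a6 against bulk and 0 for CD34+ against CD34neg. The counts for the other 2 comparisons did not change. Adjusting p within each pair, keeping loci of at least 1 FPKM and asking for a ratio of at least 1.5 left all 5 counts within 1.5 times, Tet2 being added for CD34a6 against bulk among loci of at least 1 FPKM. No called gene changed sign when 1 or 0.1 FPKM was added, when ratios were centred on the median, when summed FPKM was made equal, or when the trend on exonic length was subtracted, an alternative chosen after seeing the data. Genes not called changed sign for 1 ratio under median centring, 8 under equal sums and 7 under the length trend. Some called ratios moved by more than 1.5 times. With the trend subtracted, the log2 ratio of Dnmt3a in CD34a6 against bulk was 0.64 (1.33 as deposited). With 1 FPKM added, Dnmt3b in HFSC against bulk had 1.33 (2.18 as deposited). Equal sums raised the 7 called ratios to bulk by 0.93 for HFSC and 1.17 for CD34a6. The called ratio of Dnmt1 in CD34+ against CD34neg cells moved less, to 0.86 with the trend subtracted (1.01 as deposited). With 0.1 FPKM added, 17 of the 24 nearest genes were shared. No paired analysis was possible because the tables hold no value per replicate, and leaving out each replicate was not run for the same reason.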
